A study of Mus musculus with 8 samples.

Results

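The proteasome was taken as every gene symbol in the deposited tables that is made of Psma, Psmb, Psmc, Psmd, Psme, Psmf or Psmg followed by digits alone, which gave 48 of 23337 symbols. Their transcript levels were compared in naive CD4 and CD8 T cells of mice with and without a conditional knockout of Trappc1, a subunit of the TRAPP complexes that tether transport vesicles at the Golgi. Naive cells, gated as CD62L+ and CD44low, were sorted from the spleens and mLNs (an abbreviation the labels do not spell out) of mice 4 weeks old. The mice were either WT or CD4-cre Trappc1 cKO, here KO, in which Cre under the Cd4 promoter acts in developing T cells and so reaches both lineages. WT and KO cells of each lineage made 4 groups with 2 libraries each, called CD4 WT and CD4 KO for one lineage and CD8 WT and CD8 KO for the other, and the labels call the cells FRESH and name no treatment. Nothing in the labels says which part of Trappc1 is deleted or whether libraries came from separate animals, so p-values here measure the spread between libraries, which may be technical.

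The proteasome is the protease that destroys proteins tagged with ubiquitin. Its 20S core is a barrel of outer alpha rings, which gate the entrance, and inner beta rings, in which Psmb5, Psmb6 and Psmb7 carry the active sites. The 19S cap consists of a base, whose ATPases Psmc1 to Psmc6 unfold the substrate, and a lid, in which Psmd14 cuts the ubiquitin chain off. In lymphocytes and in cells exposed to interferon, Psmb8, Psmb9 and Psmb10 take the places of Psmb5, Psmb6 and Psmb7 and form the immunoproteasome, which favours peptides that fit MHC class I molecules. Psme1 and Psme2 form the activator PA28, Psmf1 encodes the inhibitor PI31, and Psmg1 to Psmg4, Psmd5, Psmd9 and Psmd10 encode chaperones of assembly.

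Levels are given as TPM, the share of a library's transcripts corrected for their length, so that levels of different genes can be compared. A log2 difference is between group means of log2(TPM + 1), with its standard error (SE) from limma, and a gene is said to be called where limma's Benjamini-Hochberg adjusted p over all 11786 genes tested was under 0.05. Aligned sequence ranged from 3.03 to 4.01 gigabases per library. Trappc1 itself was at 78.7 and 55.0 TPM for CD4 WT against 30.5 and 32.8 for CD4 KO, and 81.2 and 40.3 for CD8 WT against 56.9 and 45.6 for CD8 KO. Its CD4 KO libraries lay below both CD4 WT libraries, with a log2 difference of -1.03 ± 0.40 (SE; adjusted p = 0.235), and its CD8 KO libraries lay between the 2 CD8 WT libraries. CD8 WT replicate 2, as labelled, differed from the other libraries in its marker genes. Its summed level of 7 erythroid markers was 90277 TPM against 13.5 to 2143 TPM in the others, that of 12 myeloid markers 29925 against 87.4 to 2263 TPM, and that of 11 B cell markers 23358 against 1849 to 14985 TPM. The B cell sum came mostly from Cd74, H2-Aa and H2-Ab1, antigen presentation genes that other cells also express. The other 8 markers summed to 1267 TPM there, above the other CD8 libraries (449.6 to 510.2 TPM) and below the CD4 libraries (1953 to 2927 TPM), and Cd79b was lowest of the 8 libraries at 145 TPM. Its 10 T cell markers summed to 5941 TPM, against 9241 to 13412 TPM in the other 7 libraries, and Cd8b1 was at 658 TPM against 1828 to 2192 TPM in the other CD8 libraries. None of the 10 T cell markers was listed at 0 in any library. Lower levels per cell and fewer T cells in the sorted sample cannot be told apart in such bulk RNA.

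No proteasome gene was called in any comparison. Of the 48 symbols, 46 averaged at least 1 TPM over the 8 libraries and were tested. Limma called 0 of 46 in CD4 KO against CD4 WT, where it called 0.713% of all genes, and 0 of 46 in CD8 KO against CD8 WT, where it called 0.297%. At an unadjusted p under 0.05, limma gave 2 of the 46 in CD4 cells against 16.7% of all genes, and 12 of the 46 in CD8 cells against 15.1%. The 2 in CD4 cells, Psmd14 and Psmb2, were both lower in KO, as were 11.7% of all genes. Of the 12 in CD8 cells, 10 were higher in KO, beside 7.08% of all genes (Psma1, Psma6, Psma7, Psmb5, Psmb6, Psmb8, Psmc5, Psmd7, Psmd12 and Psme2) and 2 were lower, beside 8.01% (Psmd14 and Psmd3). A difference of 1 on the log2 scale was rarely called on simulated data. The simulation followed the CD4 comparison over 11087 genes, 10887 of them unchanged. Limma called 4 of 67 genes changed by 1, 53 of 67 changed by 2 and 59 of 66 changed by 3. The changed genes were drawn from those above a minimum level in CD4 WT. How many genes change in the real data is not known, and adjusted p depends on it, so these rates may differ there.

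The signs of the differences were divided in CD4 cells and mostly positive in CD8 cells. In CD4 cells 21 of 46 genes were higher in KO and 25 lower, with a median log2 difference of -0.05, beside 41.7% higher and a median of -0.16 over all genes tested. Under median-of-ratios scaling the CD4 count became 32 of 46, with a median of 0.17, beside 51.2% and 0.03 over all genes. In CD8 cells 39 of 46 were higher in KO and 7 lower, with a median of 0.37, beside 52.4% higher and a median of 0.05 over all genes, and under median-of-ratios scaling 36 of 46 were higher, with a median of 0.27. The sum over the 48 genes was 8331 and 7193 TPM for CD4 WT against 8194 and 7435 for CD4 KO, and 7772 and 5643 for CD8 WT against 8639.6 and 8932 for CD8 KO. CD8 WT replicate 2 was the lowest of these 8 sums and the 2 CD8 KO libraries were the highest, while the CD4 groups overlapped.

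**Figure D1:**
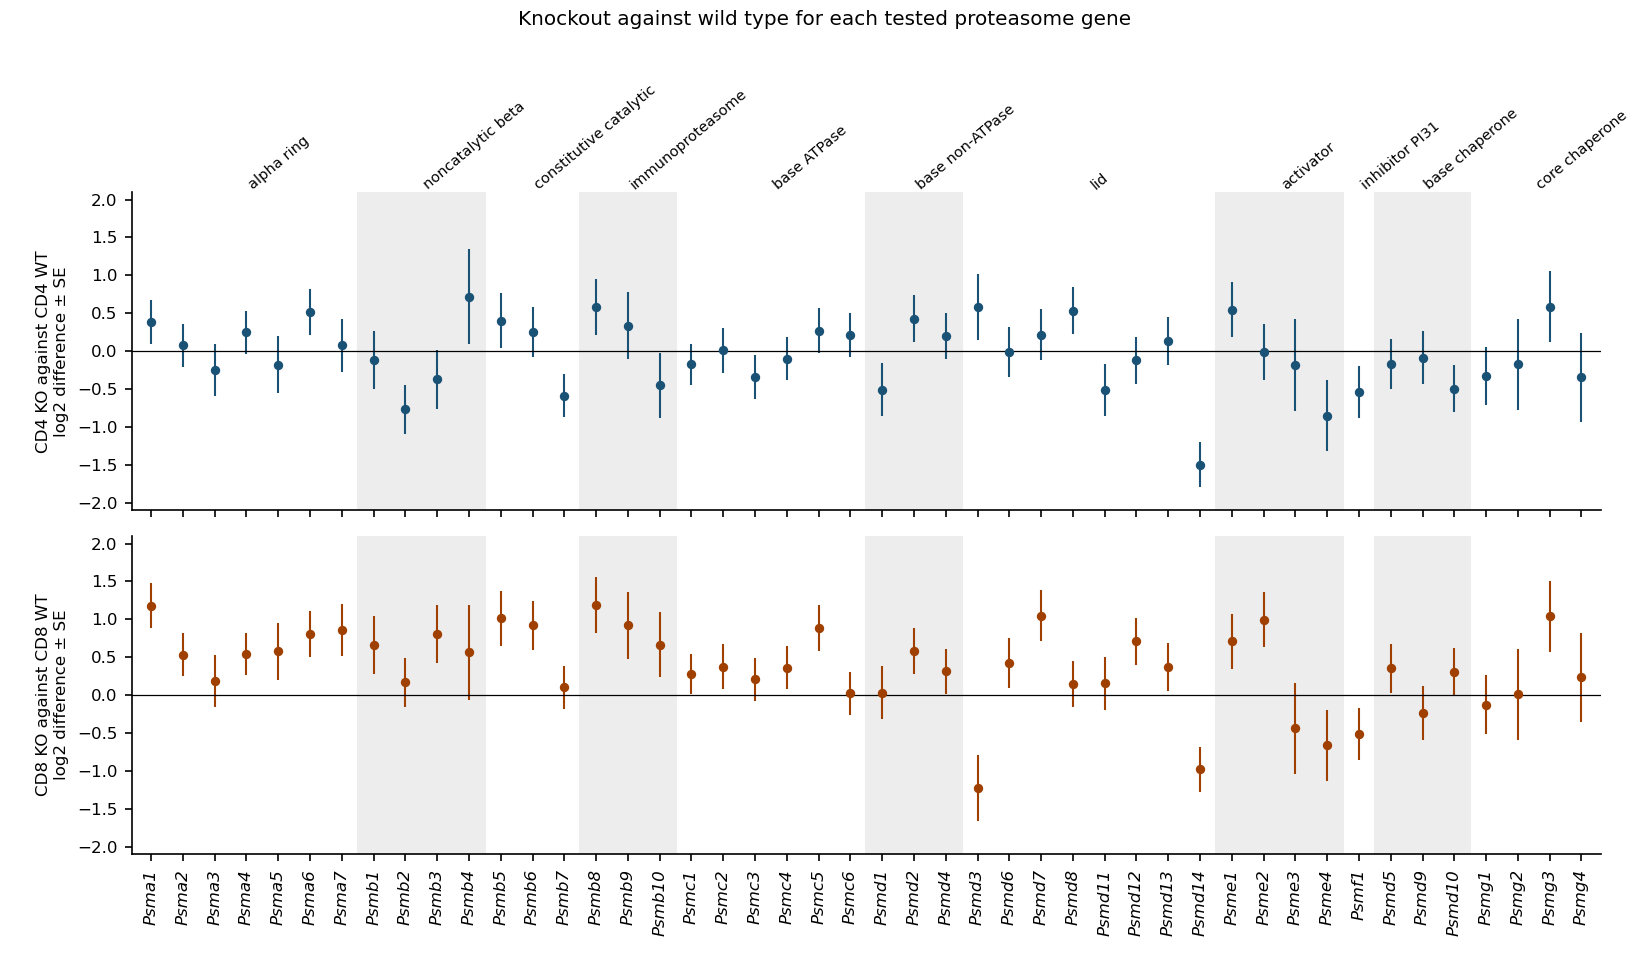
Log2 difference of KO against WT (vertical axis, log2(TPM + 1) scale) for each of the 46 tested proteasome genes, ordered by role, in CD4 cells (top) and CD8 cells (bottom). Points are estimates and bars 1 SE from limma over 2 libraries a group. In CD8 cells 39 of 46 points lie above 0, and Psmd3 and Psmd14 lie farthest below it.

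Part of the higher count in CD8 cells came with 1 library. CD8 WT replicate 2 was below replicate 1 for 40 of 46 proteasome genes (63.3% of all genes tested) and was the lowest of all 8 libraries for 29 of them (29.9% of all genes). Without it, 33 of 46 genes were higher in CD8 KO than in the single CD8 WT library left, with a median of 0.22, beside 45.1% and a median of -0.08 over all genes, and limma again called 0 of 46. Both CD8 KO libraries lay above CD8 WT replicate 1 for 25 of 46 genes (32.4% of all genes) and below it for 9 (41.04%). Without CD8 WT replicate 1 instead, limma called 15 proteasome genes in CD8 KO against CD8 WT, all of them higher, among 1809 of 11879 genes called. They were Psma1, Psma4, Psma6, Psma7, Psmb3, Psmb8, Psmb9, Psmb10, Psmc5, Psmd2, Psmd7, Psmd12, Psme1, Psme2 and Psmg3. Their differences ran from 0.79 to 1.70 without replicate 1 and from -0.03 to 0.96 without replicate 2. In these fits the lone CD8 WT library is assumed to vary like the libraries of the other groups. How far the erythroid, myeloid and B cell transcripts of replicate 2 enter the CD8 differences was not tested.

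Between the CD4 groups, marker lists of other cells moved with genotype. The 11 B cell markers summed to 14985 and 10989 TPM in CD4 WT and 6975 and 6484 TPM in CD4 KO, with Pax5 at 3.13 to 11.4 TPM. The 12 myeloid markers summed to 285 and 87.4 TPM in CD4 WT, where Mpo and Elane were listed at 0 in replicate 2, and to 1369 and 2263 TPM in CD4 KO. The 7 erythroid markers summed to 13.5 and 107 TPM in CD4 WT, where Slc4a1 and Car1 were listed at 0 in both libraries, and to 367 and 205 TPM in CD4 KO. The 10 T cell markers summed to 11675 and 11495 TPM in CD4 WT and 9241 and 9775 TPM in CD4 KO. Among them Il7r was at 3167 and 2973 TPM in CD4 WT and 1000 and 1173 TPM in CD4 KO. Cd3e (426 and 554 against 721 and 706 TPM) and Ccr7 (1865 and 2000 against 3215 and 3288 TPM) were higher in CD4 KO. The other T cell markers were lower in both CD4 KO libraries. The part of these marker lists in the CD4 differences was not tested. Over the 2 WT and 2 KO libraries of a cell type, the KO libraries both lay above both WT libraries for 14 of the 46 genes in CD4 cells (21.7% of all genes) and for 21 in CD8 cells (23%). They both lay below for 13 in CD4 cells (36.5% of all genes) and for 4 in CD8 cells (19.1%). In both cell types at once the KO libraries lay above for 11 genes, 23.9% of those tested against 8.93% of all genes, namely Psma1, Psma4, Psma6, Psmb5, Psmb8, Psmb9, Psmc5, Psmd2, Psmd7, Psme1 and Psmg3. All 11 have a genomic span, described below, of under 30 kb. Among all genes that short, the KO libraries lay above for 29.1% in CD4 cells and 28.8% in CD8 cells. Among longer genes these shares were 7.95% and 12.2%. The share of short genes above in both cell types at once was not computed. The KO libraries lay below in both for 3, Psmd14, Psme4 and Psmf1, which is 6.52% against 11.1% of all genes. Psmd3 lay above in CD4 cells and below in CD8 cells, as did 1.91% of all genes, and Psmc1 below in CD4 cells and above in CD8 cells, as did 3.84%.

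Levels ranged widely within the complex, although its core and cap subunits are assembled in fixed proportions. Averaged over the 8 libraries, the highest gene was Psmd4, the ubiquitin receptor of the base, at 950 TPM, and the lowest of those tested was Psmg2, a core chaperone, at 5.54 TPM, both on the TPM scale. Within the alpha ring the 7 expressed genes spanned 43.6 TPM for Psma3 to 401 TPM for Psma1, and within the noncatalytic beta subunits 12.6 TPM for Psmb4 to 339 TPM for Psmb2. Psma3 has near-identical copies, described below, which make its level uncertain, and Psma1 does not. Among the classes with 4 or more expressed genes the ATPases were the most even, from 82.1 TPM for Psmc2 to 356 TPM for Psmc1. The median of the average levels was 169 TPM in the lid, 168 TPM in the ATPases, 149 TPM in the alpha ring without Psma8, 84.1 TPM in the noncatalytic beta subunits and 23.5 TPM in the core chaperones. In CD8 WT the replicates differed by a median of 0.56 on the log2 scale for the 45 proteasome genes averaging at least 10 TPM, against 0.19 to 0.26 in the other 3 groups, and by 0.73 for all 7784 genes at that level. Neighbours in the order of levels within a class that differ by less than that cannot be ranked from the CD8 WT libraries.

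**Figure D2:**
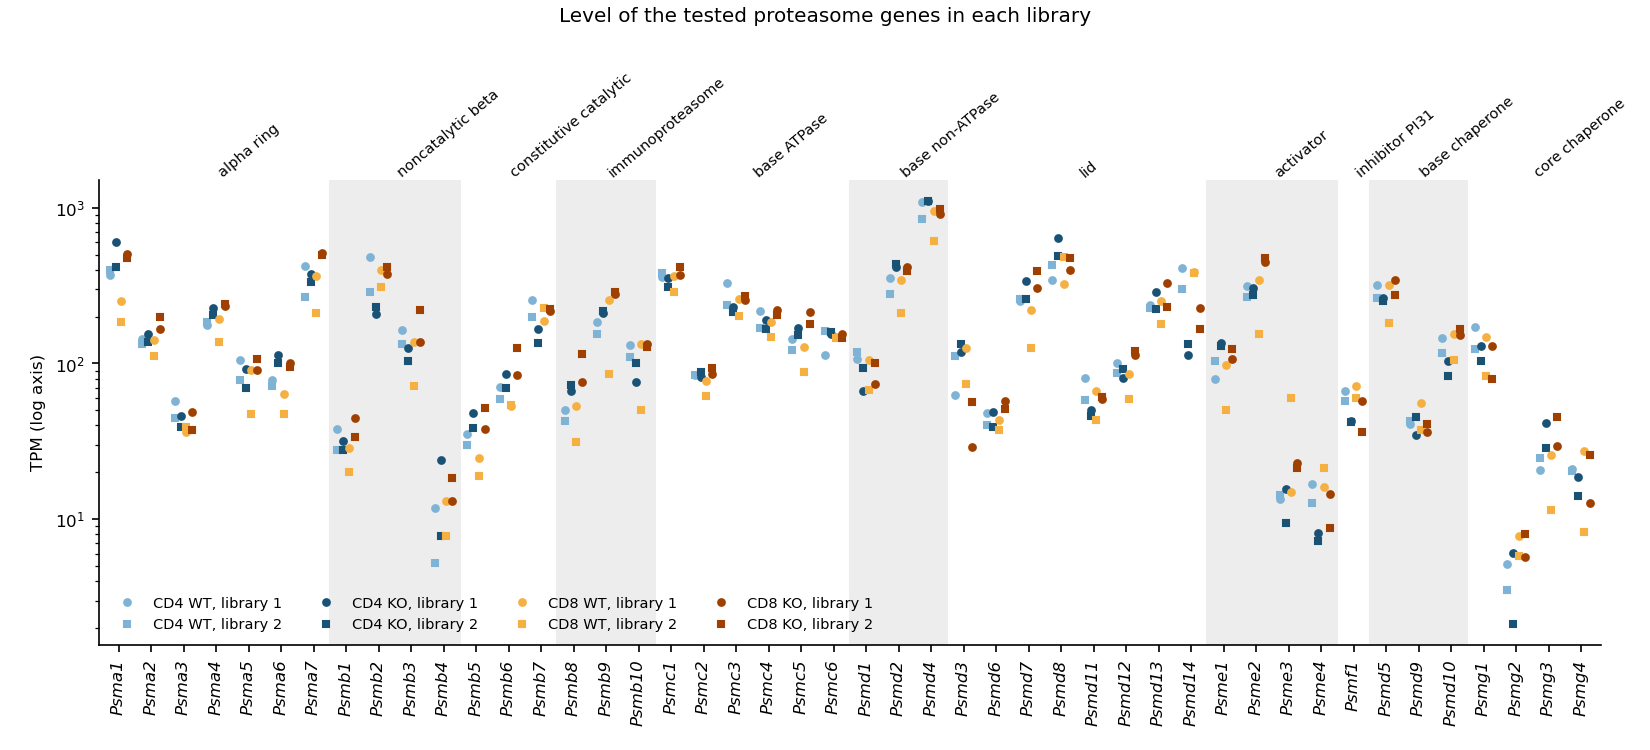
TPM of the 46 tested proteasome genes (vertical log axis) in each of the 8 libraries, ordered by role, with colours for the 4 groups, circles for library 1 and squares for library 2. Psmd4 is the highest gene, Psmg2 the lowest, and CD8 WT library 2 is the lowest point for 29 of the 46 genes.

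A testis-specific and a thymic form completed the list at trace levels. Psma8, the form of meiotic testis cells, was listed at 2.53 and 0.323 TPM for CD4 WT against 0 and 0.413 for CD4 KO, and 0 and 0 for CD8 WT against 1.02 and 0.303 for CD8 KO. Psmb11, the catalytic subunit of thymic cortical epithelium, was listed at 0 and 0.0535 TPM for CD4 WT against 0 and 0.110 for CD4 KO, and 0 and 0 for CD8 WT against 0.515 and 2.15 for CD8 KO. Both averaged under 1 TPM, at 0.573 TPM and 0.354 TPM, and were not tested.

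Among the alpha ring genes, 5 of 7 were higher in CD4 KO (6 under median-of-ratios scaling) and 7 of 7 in CD8 KO, with medians of 0.08 and 0.58. Psma1, an outer ring subunit on chr7:114264550-114276116 (mm10), was at 369 and 399 TPM for CD4 WT against 599 and 419 for CD4 KO, and 252 and 185 for CD8 WT against 506 and 476 for CD8 KO. Every KO library was above every WT library of its cell type, and the 2 CD8 WT libraries were the lowest of the 8. The log2 difference was 1.18 ± 0.30 in CD8 cells (95% interval 0.52 to 1.84; adjusted p = 0.157) and 0.39 ± 0.30 in CD4 cells (adjusted p = 0.546). Psma6, another outer ring subunit, was at 78.1 and 71.5 TPM for CD4 WT against 114 and 101 for CD4 KO, and 63.8 and 47.6 for CD8 WT against 100.01 and 94.5 for CD8 KO. Its KO libraries too were above its WT libraries in both cell types, by 0.52 ± 0.30 and 0.81 ± 0.30, with adjusted p of 0.424 and 0.263. The other 5, Psma2, Psma3, Psma4, Psma5 and Psma7, had log2 differences of -0.25 to 0.25 in CD4 cells and 0.18 to 0.86 in CD8 cells.

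The noncatalytic beta genes differed among themselves in CD4 cells. Psmb2, an inner ring subunit, was at 486 and 286 TPM for CD4 WT against 209 and 229 for CD4 KO, and 397 and 311 for CD8 WT against 373 and 417 for CD8 KO. Both CD4 KO libraries were below both CD4 WT libraries, at a log2 difference of -0.77 ± 0.32 (95% interval -1.48 to -0.05; adjusted p = 0.264), while the CD8 groups overlapped (0.17 ± 0.32). Psmb3 was at 165 and 133 TPM for CD4 WT against 126 and 104 for CD4 KO, and 137 and 71.5 for CD8 WT against 137 and 222 for CD8 KO. It was lower in both CD4 KO libraries (-0.37 ± 0.39) and overlapped in CD8 cells, where the difference was 0.81 ± 0.39 with both groups widely spread, 0.34 without CD8 WT replicate 2 and 1.27 without replicate 1. Psmb4 was at 11.8 and 5.26 TPM for CD4 WT against 23.9 and 7.75 for CD4 KO, and 13.1 and 7.80 for CD8 WT against 13.0 and 18.4 for CD8 KO. Its replicates differed by 1.51 on the log2 scale in CD4 KO, the largest such gap there among the 45 proteasome genes averaging at least 10 TPM. Psmb1 overlapped in CD4 cells (-0.12 ± 0.38, and 0.10 under median-of-ratios scaling) and was higher in both CD8 KO libraries (0.66 ± 0.38).

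The 3 standard catalytic subunits differed in sign in CD4 cells. Psmb5, which cleaves after hydrophobic residues, was at 35.2 and 29.8 TPM for CD4 WT against 48.2 and 38.6 for CD4 KO, and 24.5 and 18.9 for CD8 WT against 38.0 and 52.1 for CD8 KO. KO libraries were above WT libraries in both cell types, by 0.40 ± 0.36 in CD4 cells and 1.01 ± 0.36 in CD8 cells (adjusted p = 0.609 and 0.248). Psmb6, which cleaves after acidic residues, was at 70.2 and 59.4 TPM for CD4 WT against 86.1 and 69.3 for CD4 KO, and 53.6 and 54.1 for CD8 WT against 84.5 and 125 for CD8 KO. Both CD8 KO libraries were above both CD8 WT libraries (0.92 ± 0.33; adjusted p = 0.247), and the CD4 groups overlapped (0.25 ± 0.33). Psmb7, which cleaves after basic residues, was at 257 and 199 TPM for CD4 WT against 168 and 135 for CD4 KO, and 186 and 227 for CD8 WT against 218 and 224 for CD8 KO. It was lower in both CD4 KO libraries (-0.58 ± 0.29; adjusted p = 0.340) and overlapped in CD8 cells (0.10 ± 0.29).

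Of the immunoproteasome genes, Psmb8 and Psmb9 had KO libraries above the WT libraries in both cell types without being called, and Psmb10 did not. Psmb8, the counterpart of Psmb5, lies at chr17:34198195-34201454 in the MHC region, and was at 50.1 and 42.8 TPM for CD4 WT against 66.7 and 73.1 for CD4 KO, and 53.1 and 31.2 for CD8 WT against 76.3 and 116 for CD8 KO. The KO libraries were above the WT libraries in both cell types, by 0.58 ± 0.37 in CD4 cells (95% interval -0.25 to 1.41; adjusted p = 0.462) and 1.19 ± 0.37 in CD8 cells (0.35 to 2.02; adjusted p = 0.211). Psmb9, the counterpart of Psmb6, lies nearby at chr17:34182099-34187330 on the opposite strand and was at 186 and 155 TPM for CD4 WT against 212 and 217 for CD4 KO, and 256 and 86.2 for CD8 WT against 279 and 286 for CD8 KO. Its CD8 KO libraries were close to CD8 WT replicate 1, and the CD8 difference was 0.92 ± 0.44 with all libraries and 0.14 without CD8 WT replicate 2. In CD4 cells the difference was 0.33 ± 0.44 (adjusted p = 0.746). With the span trend described below removed it was -0.15, beside a median of -0.32 over all genes. Psmb10, the counterpart of Psmb7 on chromosome 8, was at 132 and 111 TPM for CD4 WT against 76.6 and 101 for CD4 KO, and 133 and 50.3 for CD8 WT against 134 and 127 for CD8 KO. It was lower in both CD4 KO libraries (-0.45 ± 0.43; adjusted p = 0.630), and in CD8 cells 3 of the 4 libraries stood between 127 and 134 TPM with CD8 WT replicate 2 at 50.3 TPM.

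Dividing each immunoproteasome gene by its standard counterpart within a library removes any scaling of that library. Division does not remove any sharing of reads with near-identical copies, described below. Psmb5 and Psmb6 have such copies, and Psmb7, Psmb8, Psmb9 and Psmb10 do not. The ratio of Psmb8 to Psmb5 was 1.42 and 1.43 for CD4 WT against 1.38 and 1.89 for CD4 KO, and 2.16 and 1.65 for CD8 WT against 2.01 and 2.22 for CD8 KO. Each of the 4 groups thus had a higher TPM listed for Psmb8 than for Psmb5 in both libraries, and the KO and WT ratios overlapped in both cell types. The ratio of Psmb9 to Psmb6 was 2.65 and 2.62 for CD4 WT against 2.46 and 3.13 for CD4 KO, and 4.79 and 1.59 for CD8 WT against 3.31 and 2.29 for CD8 KO. The ratio of Psmb10 to Psmb7 was below 1 in all 8 libraries, at 0.513 and 0.555 for CD4 WT against 0.457 and 0.750 for CD4 KO, and 0.713 and 0.222 for CD8 WT against 0.614 and 0.566 for CD8 KO. For these 2 pairs CD8 WT replicates 1 and 2 were the highest and the lowest of the CD8 libraries. The mean log2 ratio differed between KO and WT by 0.18, 0.08 and 0.13 for the 3 pairs in CD4 cells and by 0.16, -0.0039 and 0.57 in CD8 cells, against replicate standard deviations of 0.22, 0.60 and 0.65 pooled over the 4 groups.

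**Figure D3:**
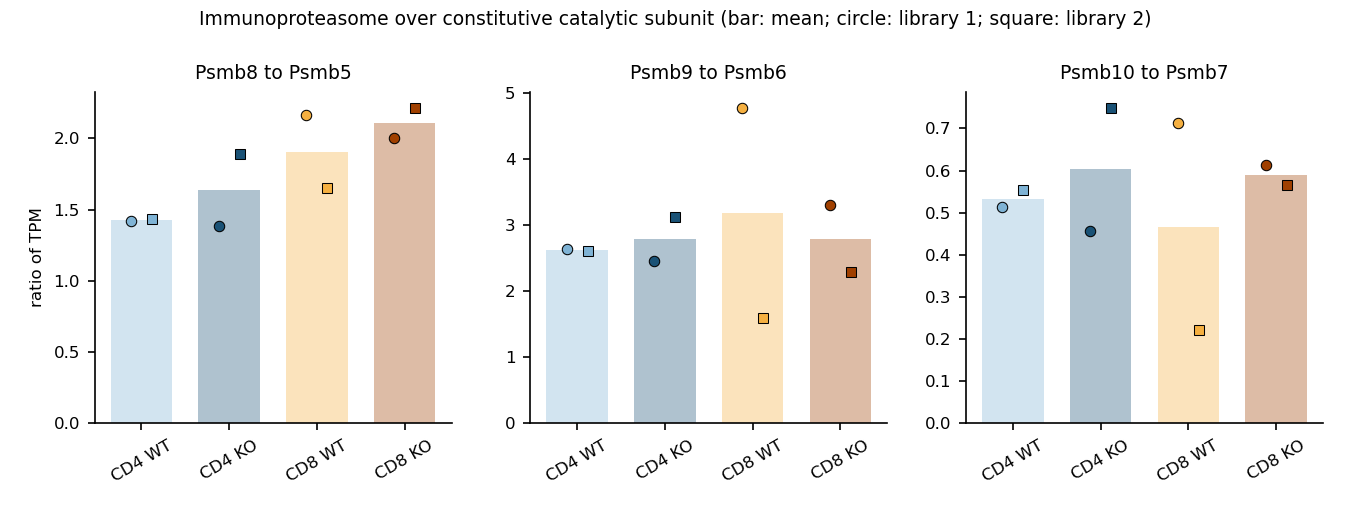
Ratio of the TPM of each immunoproteasome subunit to that of the standard subunit it replaces, by group; bars are means of 2 libraries, circles library 1 and squares library 2, with axes from 0. The KO and WT points overlap for all 3 pairs in both cell types, and CD8 WT library 2 is the lowest point for Psmb9 to Psmb6 and Psmb10 to Psmb7.

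Start regions of these genes are shown because Psmb9 shares its start region with the peptide transporter gene Tap1, and because Psmb5 and Psmb8, which trade places in the core, hold different motif letters. Sequences are from RefSeq for GRCm38.p6, read 5′ to 3′. They lie on the plus strand at chr17:34187331-34187555 for the stretch between the starts of Psmb9 and Tap1. They lie on the minus strand at chr14:54617996-54618115 for the bases before the Psmb5 start, and on the plus strand at chr17:34198075-34198194 for those before the Psmb8 start. Capitals mark a match to the Sp1 box GGGCGG on the opposite strand in the first, to the antioxidant response element TGACNNNGC in the second, and to the gamma-activated site TTCNNNGAA in the third.
Psmb9-Tap1: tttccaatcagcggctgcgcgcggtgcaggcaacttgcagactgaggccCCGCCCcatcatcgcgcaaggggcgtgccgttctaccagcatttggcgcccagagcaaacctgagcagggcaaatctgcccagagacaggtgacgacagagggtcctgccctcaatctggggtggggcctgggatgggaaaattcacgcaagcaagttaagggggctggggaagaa
Psmb5: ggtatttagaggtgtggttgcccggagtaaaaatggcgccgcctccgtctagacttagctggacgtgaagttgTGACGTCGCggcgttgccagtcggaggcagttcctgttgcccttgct
Psmb8: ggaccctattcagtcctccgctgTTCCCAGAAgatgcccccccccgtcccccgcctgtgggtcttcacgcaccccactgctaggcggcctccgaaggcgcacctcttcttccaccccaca

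Promoters of 40 of the 48 genes were matched in the RefSeq table, and the 250 bases before each start were searched on both strands. The antioxidant response element TGACNNNGC, a motif bound by the Nfe2 family that includes the proteasome regulator Nfe2l1, was found for Psmb5, Psmb6, Psmc6, Psmd9 and Psmd12. That is 12.5% of the 40 genes, beside 14.1% of 8355 tested genes and 10.2% of all 32851 promoters. The first 2 shares count a gene with a match in any of its promoters, and the last counts single promoters. The interferon-stimulated response element, taken as GAAA, any 2 bases and GAAA, was found for Psmb3, Psmd4 and Psmd9 (7.5%, beside 3.45% and 2.98%), and the gamma-activated site TTCNNNGAA for Psmb8 and Psmg1 (5.0%, beside 7.61% and 7.02%). GGGCGG was found in 55.0% of the 40, beside 62.3% and 32.7%, and CCAAT in 35%, beside 40.95% and 33.9%. Of the genes with the antioxidant response element, the KO libraries lay above the WT libraries in both cell types for Psmb5 alone. Such matches describe the letters in the window, and no binding was measured.

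Psmb9 and Tap1, read from the shared stretch in opposite directions, did not keep a fixed ratio. Tap1, which carries peptides into the endoplasmic reticulum, was at 139 and 293 TPM for CD4 WT against 406 and 534 for CD4 KO, and 261 and 167 for CD8 WT against 373 and 335 for CD8 KO. Per library the ratio of Psmb9 to Tap1 ranged from 0.406 in a CD4 KO library to 1.34 in CD4 WT replicate 1, so the CD4 WT replicates (1.34 and 0.530) were farther apart than any 2 group means.

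In the base, the 6 ATPase genes had log2 differences of -0.34 to 0.27 in CD4 cells and 0.02 to 0.88 in CD8 cells. In CD4 KO 3 of 6 were higher and in CD8 KO 6 of 6, and under median-of-ratios scaling 5 of 6 were higher in each. Psmc5, a subunit of the ATPase ring, was at 143 and 122 TPM for CD4 WT against 168 and 152 for CD4 KO, and 128 and 87.8 for CD8 WT against 214 and 179.6 for CD8 KO. KO libraries were above WT libraries in both cell types, by 0.27 ± 0.30 and 0.88 ± 0.30 (adjusted p = 0.684 and 0.239). Psmc3, another ATPase, was at 328 and 239 TPM for CD4 WT against 229 and 213 for CD4 KO, and 258 and 201 for CD8 WT against 256 and 271 for CD8 KO. Its CD4 KO libraries were just below its CD4 WT libraries (-0.34 ± 0.29) and the CD8 groups overlapped. Psmc1 was at 362 and 382 TPM for CD4 WT against 352 and 308 for CD4 KO, and 365 and 288 for CD8 WT against 370.0 and 419 for CD8 KO. The KO libraries lay below the WT libraries in CD4 cells (-0.17 ± 0.27, but 0.04 under median-of-ratios scaling) and above them in CD8 cells (0.28 ± 0.27). The difference between these effects was 0.45 ± 0.38 (SE; adjusted p = 0.758).

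The scaffold genes of the base diverged from each other. Psmd1, one of its large scaffolds, was at 106 and 118 TPM for CD4 WT against 66.2 and 92.9 for CD4 KO, and 105 and 67.1 for CD8 WT against 73.3 and 100.3 for CD8 KO. It was lower in both CD4 KO libraries (-0.51 ± 0.35; adjusted p = 0.496) and overlapped in CD8 cells (0.03 ± 0.35, or -0.07 under median-of-ratios scaling). Psmd2, the other large scaffold, was at 356 and 281 TPM for CD4 WT against 417 and 434 for CD4 KO, and 344 and 209.9 for CD8 WT against 417 and 390.4 for CD8 KO. KO libraries were above WT libraries in both cell types, by 0.43 ± 0.31 and 0.58 ± 0.31 (adjusted p = 0.519 and 0.405). Its CD8 difference was 0.23 without CD8 WT replicate 2 and 0.94 without replicate 1. Psmd4 had log2 differences of 0.20 ± 0.30 and 0.31 ± 0.30.

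The largest KO against WT difference of the 46 genes was in the lid in each cell type, and the lid subunits differed in sign. Psmd14, the metalloprotease that removes ubiquitin chains as the substrate enters, spans chr2:61711694-61800376 and was at 409 and 299.5 TPM for CD4 WT against 114 and 134 for CD4 KO, and 389 and 382 for CD8 WT against 227 and 167 for CD8 KO. All 4 KO libraries were below all 4 WT libraries, and the CD4 KO libraries were the lowest of the 8. The log2 difference was -1.50 ± 0.30 in CD4 cells (95% interval -2.16 to -0.83; adjusted p = 0.0606) and -0.98 ± 0.30 in CD8 cells (-1.64 to -0.32; adjusted p = 0.200). In CD4 cells it was called when only genes averaging at least 10 TPM were tested (adjusted p = 0.0481), with library weights (0.00425), with the CD4 groups fitted alone (0.0132) and without CD8 WT replicate 1 (0.021) or 2 (0.0118). The adjusted p ranged from 0.00425 to 0.547 over 17 alternatives. With the span trend described below removed it was -1.02 (adjusted p = 0.195). The transcript of another gene, Gm12096, is 91.1% identical to its coding sequence.

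Psmd7, which binds Psmd14 in the lid, was at 250.2 and 259.8 TPM for CD4 WT against 338 and 261 for CD4 KO, and 220.4 and 126 for CD8 WT against 303 and 393 for CD8 KO. KO libraries were above WT libraries in both cell types, by 0.22 ± 0.33 and 1.05 ± 0.33 (adjusted p = 0.782 and 0.218), so the 2 partners differed in sign. Psmd3, a scaffold of the lid at chr11:98682554-98695978, was at 62.5 and 112 TPM for CD4 WT against 118 and 133 for CD4 KO, and 126 and 74.0 for CD8 WT against 29.2 and 56.9 for CD8 KO. Its CD4 KO libraries were above and its CD8 KO libraries below the WT libraries, at 0.58 ± 0.44 (adjusted p = 0.539) and -1.22 ± 0.44 (adjusted p = 0.248). The CD8 effect minus the CD4 effect was -1.80 ± 0.62 (SE; adjusted p = 0.701). It was the only proteasome gene with an unadjusted limma p under 0.05 for that difference, beside 6.95% of all genes, of which 0 were called. Psmd8, a small lid subunit, was at 343 and 429.9 TPM for CD4 WT against 636 and 489 for CD4 KO, and 325 and 480.0 for CD8 WT against 400.0 and 479 for CD8 KO. Both CD4 KO libraries were above both CD4 WT libraries (0.54 ± 0.31) while the CD8 groups overlapped. The other lid genes, Psmd6, Psmd11, Psmd12 and Psmd13, had log2 differences of -0.51 to 0.13 in CD4 cells and 0.16 to 0.71 in CD8 cells.

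**Figure D4:**
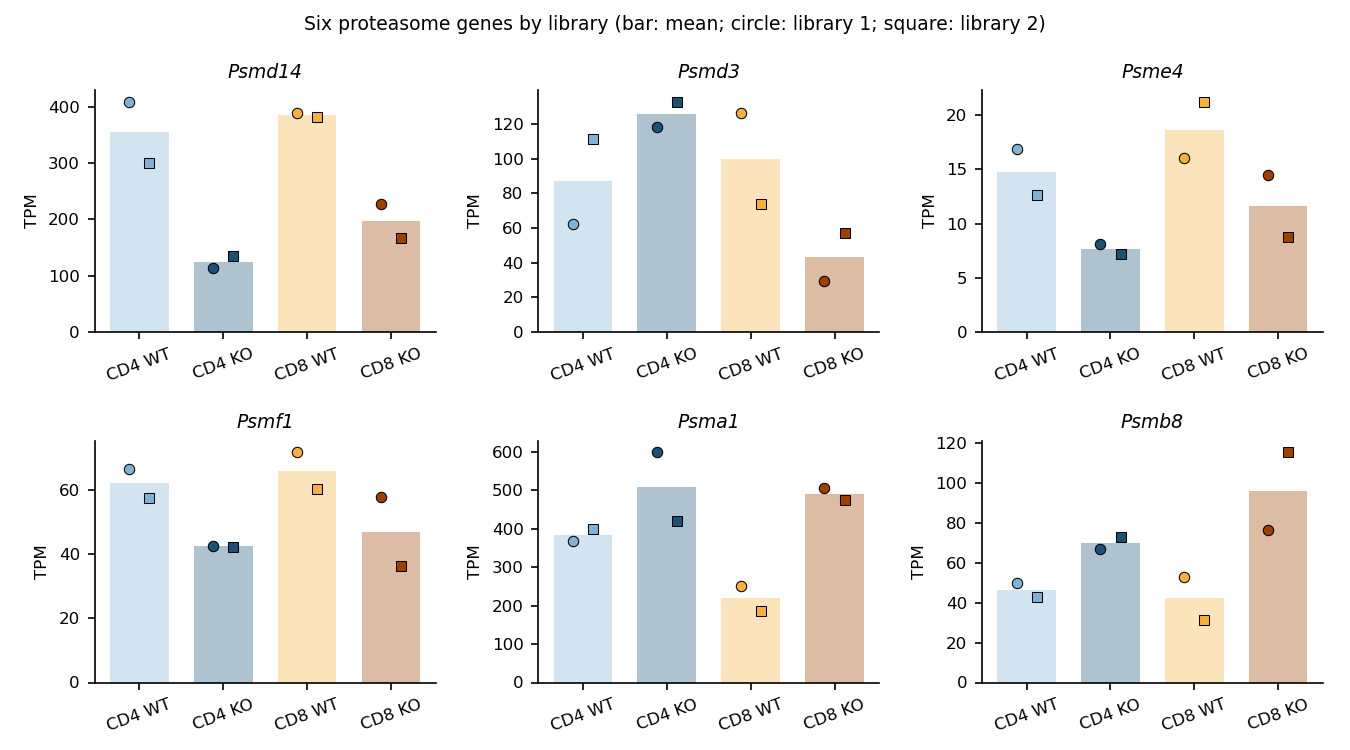
TPM of Psmd14, Psmd3, Psme4, Psmf1, Psma1 and Psmb8 by group; bars are means of 2 libraries, circles library 1 and squares library 2, with axes from 0. Psmd14, Psme4 and Psmf1 are lower in the KO libraries of both cell types, Psma1 and Psmb8 higher, and Psmd3 is higher in CD4 KO and lower in CD8 KO.

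The activators differed among themselves. Psme2, the PA28 beta subunit, was at 316 and 269 TPM for CD4 WT against 304 and 275 for CD4 KO, and 343 and 155 for CD8 WT against 446 and 476 for CD8 KO. The CD4 groups overlapped (-0.01 ± 0.37, and 0.21 under median-of-ratios scaling) and the CD8 KO libraries were above the CD8 WT libraries (0.997 ± 0.37; adjusted p = 0.257), a difference of 0.42 without CD8 WT replicate 2. Its partner Psme1 was higher in KO in both cell types (0.55 ± 0.36 and 0.71 ± 0.36), and the TPM ratio of Psme1 to Psme2 did not overlap between KO and WT in either cell type. That ratio was 0.251 and 0.386 in CD4 WT against 0.448 and 0.474 in CD4 KO, and 0.283 and 0.323 in CD8 WT against 0.241 and 0.258 in CD8 KO, so it was higher in CD4 KO and lower in CD8 KO. The CD4 WT replicates lay farther apart than the nearest CD4 WT and CD4 KO libraries. Both genes have copies of the kind described below. The pair was chosen after the values were seen, and the difference in the ratio was not tested. Psme3, the nuclear PA28 gamma, was at 13.6 and 14.4 TPM for CD4 WT against 15.7 and 9.44 for CD4 KO, and 15.0 and 59.9 for CD8 WT against 22.8 and 21.3 for CD8 KO. CD8 WT replicate 2 was far above the other 7 libraries. Psme4, which encodes the large nuclear activator PA200, was at 16.9 and 12.6 TPM for CD4 WT against 8.10 and 7.23 for CD4 KO, and 16.0 and 21.3 for CD8 WT against 14.5 and 8.77 for CD8 KO. Its KO libraries were below the WT libraries in both cell types, at -0.85 ± 0.47 and -0.66 ± 0.47 (adjusted p = 0.394 and 0.517).

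Psmf1, the inhibitor PI31, was at 66.6 and 57.5 TPM for CD4 WT against 42.4 and 42.3 for CD4 KO, and 71.8 and 60.1 for CD8 WT against 57.8 and 36.3 for CD8 KO. It was lower in KO in both cell types, at -0.54 ± 0.34 and -0.51 ± 0.34 (adjusted p = 0.464 and 0.499), with CD8 KO replicate 1 just below the lower CD8 WT library. Of the chaperones of the base, Psmd10 was at 147 and 118 TPM for CD4 WT against 103 and 83.5 for CD4 KO, and 156 and 105 for CD8 WT against 152 and 166 for CD8 KO. It was lower in both CD4 KO libraries (-0.49 ± 0.31) and overlapped in CD8 cells. Psmd5, which binds the ATPases during assembly, was at 318 and 263 TPM for CD4 WT against 264 and 250.3 for CD4 KO, and 317 and 181 for CD8 WT against 342 and 275 for CD8 KO. It overlapped in both cell types (-0.17 ± 0.33, or 0.05 under median-of-ratios scaling, and 0.35 ± 0.33). Among the core chaperones, Psmg3 was at 20.7 and 24.8 TPM for CD4 WT against 41.7 and 28.7 for CD4 KO, and 25.8 and 11.5 for CD8 WT against 29.6 and 45.1 for CD8 KO. The KO libraries were above the WT libraries in both cell types, by 0.59 ± 0.47 and 1.04 ± 0.47 (adjusted p = 0.560 and 0.335). Its CD8 difference was 0.49 without CD8 WT replicate 2 and 1.59 without replicate 1. Its partner Psmg4 had differences of -0.35 ± 0.58 and 0.24 ± 0.58, and Psmg1 and Psmg2, which pair with each other, had -0.33 ± 0.38 and -0.17 ± 0.60 in CD4 cells, where Psmg2 stood at 0.0044 under median-of-ratios scaling.

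Proteasome genes with a long genomic span, the distance from the first to the last base of the gene, were lower in CD4 KO. All 6 genes spanning at least 30 kb, a limit chosen after the values were seen, had both CD4 KO libraries below both CD4 WT libraries. They are Psme4 (108.6 kb), Psmd14 (88.7 kb), Psmd1 (74.7 kb), Psmb7 (55.9 kb), Psmd11 (43.5 kb) and Psmb2 (32.1 kb). Their median log2 difference was -0.68, beside -0.61 over all 4149 tested genes of that span, 58.0% of which had both KO libraries below. The 40 shorter genes had a median of 0.04, beside 0.05 over all 7637 shorter genes. In CD8 cells the 6 long genes had a median of 0.07 (all long genes -0.31) and the 40 shorter ones 0.54 (all shorter genes 0.23). Across the 46 genes, log10 of the span and the log2 difference correlated with Pearson's r of -0.667 in CD4 cells and -0.597 in CD8 cells, against -0.392 and -0.234 across all 11786 genes. These are descriptions across genes measured in the same libraries, and genes are not independent replicates. Once the trend of level against span was removed within each library, 9 of 46 proteasome genes were higher in CD4 KO with a median of -0.32, beside 32.7% and a median of -0.32 over all genes. In the same fit 35 of 46 were higher in CD8 KO, with a median of 0.26 against 0.02 over all genes.

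**Figure D5:**
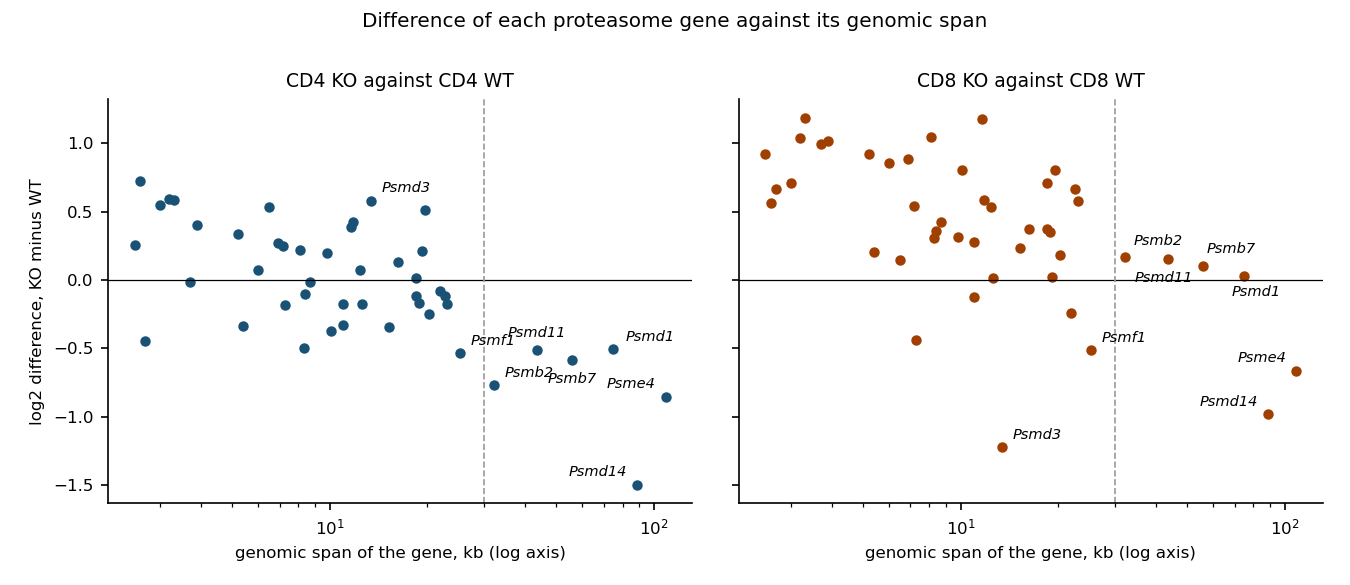
Log2 difference of KO against WT (vertical axis, log2(TPM + 1) scale) against the genomic span of the gene (horizontal log axis, kb) for the 46 tested proteasome genes, in CD4 cells (left) and CD8 cells (right); the dashed line marks 30 kb. All 6 genes to the right of the line are below 0 in CD4 cells, and 4 of the 6 are above 0 in CD8 cells (3 under median-of-ratios scaling).

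Between the cell types of WT mice, limma called 0 of 46 proteasome genes and 0.195% of all genes, and 1 of the 46, Psma1, had an unadjusted p under 0.05, beside 8.67% of all genes. Psma1 was lower in CD8 WT, at -0.82 ± 0.30 on the log2 scale (SE; adjusted p = 0.499). In total 10 of 46 were higher in CD8 WT and 36 lower, with a median of -0.26, the same as the median over all genes, 33% of which were higher. Under median-of-ratios scaling 27 of 46 were higher with a median of 0.03, and without CD8 WT replicate 2 it was 26 of 46 with a median of 0.06, so no direction can be given. Immunoproteasome genes had differences of -0.18 for Psmb8, -0.19 for Psmb9 and -0.55 for Psmb10, all of which turned positive without CD8 WT replicate 2. Without CD8 WT replicate 1, only replicate 2, with its high erythroid and myeloid markers, stood for CD8 WT. The difference was then -1.05 for Psma1, -0.97 for Psmb9, -1.25 for Psmb10, -1.01 for Psmd7 and 2.02 for Psme3. The median over all genes in that fit was -0.44.

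The KO effects in the 2 cell types were also compared directly. The CD8 effect exceeded the CD4 effect for 40 of 46 proteasome genes, with a median of 0.49, beside 61.2% and 0.24 over all genes, and limma called 0 of 46 and 0% of all genes. Under median-of-ratios scaling it did so for 30 of 46, with a median of 0.17, beside 47.2% and -0.05 over all genes. Without CD8 WT replicate 1 the CD8 effect minus the CD4 effect was 1.37 for Psmb9, 1.80 for Psmb10 and 1.58 for Psme2. The median over all genes in that fit was 0.42. Without replicate 2 it was -0.19 for Psmb9. Over the fits that left out 1 library, the lowest value was 0.42 for Psmb10 and 0.44 for Psme2.

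Other genes of the pathway came from 4 lists of 41 genes, 40 of which were found in the tables, 3 of them under older symbols. In CD4 KO against CD4 WT 1 of the 40 rose and 0 fell, and in CD8 KO against CD8 WT none was called, beside 0.713% and 0.297% of all genes. At an unadjusted p under 0.05 by limma, 4 were higher and 6 lower in CD4 cells, against 5.03% and 11.7% of all genes, and 4 were higher and 5 lower in CD8 cells, against 7.08% and 8.01%. The gene that rose was Irf1, a transcription factor that drives interferon-inducible genes, at 182 and 253 TPM for CD4 WT against 641 and 767 for CD4 KO, and 289 and 194 for CD8 WT against 349.9 and 343 for CD8 KO. The log2 difference was 1.70 ± 0.31 in CD4 cells (SE; adjusted p = 0.0438) and 0.55 ± 0.31 in CD8 cells (adjusted p = 0.431), and the difference between these was -1.15 ± 0.44 (adjusted p = 0.701). Its call did not hold in 9 of 17 alternatives, among them those without a filter on low values (adjusted p = 0.0962), with the span trend removed (0.155), or when any 1 of the 4 CD4 libraries or the 2 CD8 KO libraries was left out (0.119 to 0.443). Its adjusted p ranged from 0.00227 to 0.443 over the 17.

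Among partners of the proteasome whose symbols lie outside the naming rule, 3 of 9 were higher and 6 lower in CD4 KO, with a median of -0.64. In CD8 KO 5 were higher and 4 lower, with a median of 0.07. The lowest p in that list belonged to AI314180, the older symbol of the proteasome adaptor gene Ecpas, at 21.8 and 25.4 TPM for CD4 WT against 3.82 and 7.92 for CD4 KO, and 15.0 and 15.9 for CD8 WT against 4.02 and 7.56 for CD8 KO. Every KO library was below every WT library, at -1.90 ± 0.52 in CD4 cells (adjusted p = 0.123) and -1.33 ± 0.52 in CD8 cells (adjusted p = 0.280). The proteasome-bound deubiquitinases Usp14 and Uchl5 stood at -0.88 ± 0.33 and -0.81 ± 0.34 in CD4 KO against CD4 WT (adjusted p = 0.220 and 0.269). In CD8 KO against CD8 WT they stood at -0.45 ± 0.33 and 0.19 ± 0.34, and the CD8 groups overlapped for Uchl5.

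Of the regulators around Nfe2l1, the factor that raises proteasome genes when degradation is short, 5 of 8 were higher in CD4 KO and 4 of 8 in CD8 KO. Mafk, a small partner of the Nfe2 family, was at 41.3 and 64.3 TPM for CD4 WT against 158 and 179 for CD4 KO, and 79.6 and 213 for CD8 WT against 96.3 and 79.1 for CD8 KO. It was 1.68 ± 0.45 higher in CD4 KO (adjusted p = 0.120), and the CD8 groups overlapped. Ddi2, the protease that activates Nfe2l1, was at 6.68 and 11.4 TPM for CD4 WT against 6.63 and 7.74 for CD4 KO, and 12.8 and 41.5 for CD8 WT against 2.36 and 6.61 for CD8 KO. CD8 WT replicate 2 was the highest, and the difference was -2.26 ± 0.67 in CD8 cells (adjusted p = 0.191). Nfe2l1 itself was at 34.4 and 28.7 TPM for CD4 WT against 138 and 44.4 for CD4 KO, and 33.7 and 59.3 for CD8 WT against 16.1 and 59.5 for CD8 KO. Both CD4 KO libraries were above both CD4 WT libraries (1.30 ± 0.66; adjusted p = 0.363), and the CD8 groups overlapped.

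Among the 15 genes of ubiquitin supply and delivery, 10 were higher in CD4 KO and 9 in CD8 KO. Ubqln4, a shuttle that brings tagged proteins to the proteasome, had the lowest p in CD4 cells, at 18.9 and 24.2 TPM for CD4 WT against 35.5 and 51.7 for CD4 KO, and 17.3 and 17.4 for CD8 WT against 21.7 and 27.0 for CD8 KO. Its CD4 difference was 0.97 ± 0.39 (adjusted p = 0.247). Its relative Ubqln1 had the lowest in CD8 cells, at 35.2 and 16.9 TPM for CD4 WT against 18.2 and 19.3 for CD4 KO, and 55.3 and 69.0 for CD8 WT against 11.4 and 16.7 for CD8 KO. The CD8 difference was -2.08 ± 0.44 (adjusted p = 0.108). Both CD8 KO libraries were below both CD8 WT libraries for Ubqln1, and its CD4 groups overlapped. Of the 8 interferon and peptide transport genes, 4 were higher and 4 lower in CD4 KO, and 6 were higher and 2 lower in CD8 KO. Nlrc5, of that list, was at 30.9 and 37.4 TPM for CD4 WT against 9.32 and 15.0 for CD4 KO. For CD8 WT it was at 59.2 and 22.2 TPM against 25.3 and 16.9 for CD8 KO. Tapbp, which loads peptides onto MHC class I, had the lowest p in CD8 cells, at 839 and 948 TPM for CD4 WT against 1170.1 and 1561 for CD4 KO, and 1040.2 and 699 for CD8 WT against 1663 and 1683 for CD8 KO. Every KO library was above the WT libraries of its cell type, and the CD8 difference was 0.97 ± 0.30 (adjusted p = 0.211).

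Near-identical copies limit how exactly some of these levels are known. For 14 of the 48 genes the GENCODE M21 transcripts hold at least 1 other transcript that matches at least 80% of the coding sequence at 90% identity or more. Among them are Psma3 (3 copies, up to 100%), Psmb3 (6 copies, up to 97.1%), Psme2 (up to 99.3%) and Psmb5 (up to 98.9%). Psma3, Psma4, Psmd1 and Psme1 overlap a gene on the opposite strand, and whether counting used the strand is not given. No source used here says how reads were shared with them, and these genes are uncertain to that extent. The 14 genes had a median average level of 120 TPM against 115 TPM for the other 32 tested, and median log2 differences of -0.06 and -0.05 in CD4 cells and 0.58 and 0.33 in CD8 cells.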

How the data were processed

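Each of the 8 libraries came with its own table of 23337 gene symbols. The deposited TPM values sum to 1000000 in each library. The FPKM values and the mean per-base coverage (a signal not normalized for depth) stand beside them, per the file headers. Per the submitters' processing notes, HISAT and mm10 were used for alignment. Libraries were made with the SMARTER mRNA kit, per the labels' protocols. The labels name DESeq2 for the authors' own comparisons, which needs counts. No counts were used here, and no source used here names the program or annotation behind the per-gene values. Libraries were grouped by the titles and replicate numbers of the labels. 

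TPM was summed per symbol and log2(TPM + 1) of the 11786 genes averaging at least 1 TPM was fitted with limma 3.58.1 in R 4.3.3, with its trend option. The fit held 4 groups of 2 libraries with a shared spread (4 residual and 5.68 prior degrees of freedom), with Benjamini-Hochberg adjustment at 0.05 over all genes. A fold on this scale understates the change of low genes. Contrasts were KO against WT in each cell type, the difference of these effects (CD8 minus CD4), and CD8 WT against CD4 WT. The immunoproteasome ratios use TPM. FPKM gives the same ratios, because within a library it differs from TPM by a constant factor. Aligned gigabases were computed from the ratio of coverage to FPKM. With 2 libraries a group, an exact permutation test of single values could not reach 0.05, so none was used. Alternatives were pseudocounts of 0.1 and 5, no filter and a mean of at least 10 TPM, median-of-ratios scaling, library weights, a replicate block, removal of the trend of level against genomic span in each library, each comparison fitted alone, and leaving out each library. The limma fit was tested on simulated data. Copies were sought with blastn 2.17.0 among GENCODE transcripts.

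The members and lists were chosen with earlier results of these data known. Library values are given for the catalytic pairs, for the member of each role with the largest difference in each KO comparison, for called members and up to 5 a comparison with the lowest p, for members averaging under 1 TPM, and, of the pathway lists, for called genes and the lowest p in each KO comparison. Other genes named were chosen after their values were seen.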

Additional observations from a re-analysis of the deposited data

Results flagged for a closer look

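For 2 proteasome genes, both KO libraries lay on one side of both WT libraries in CD4 cells and on the opposite side in CD8 cells. Psmd3, a scaffold of the lid, was higher in CD4 KO and lower in CD8 KO, and the CD8 effect minus the CD4 effect was -1.80 on the log2 scale (95% interval -3.19 to -0.42; limma adjusted p = 0.701). Psmc1, an ATPase of the base, was lower in CD4 KO and higher in CD8 KO, with a difference of 0.45 (95% interval -0.40 to 1.31; limma adjusted p = 0.758), and its CD4 difference changed sign under median-of-ratios scaling. Of all genes tested, 1.91% shared the pattern of Psmd3 and 3.84% that of Psmc1. Neither difference passed the adjusted threshold.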

How the results depend on the processing

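With 2 libraries a group and a spread shared over 8, single libraries decide many calls, and a difference of 1 on the log2 scale was rarely called on simulated data. Reads per gene are not known, so no counting interval is given. Psmd14 alone made the count of called proteasome genes 1 in CD4 KO against CD4 WT with a mean of at least 10 TPM, with library weights and with the groups compared alone. Leaving out 1 library gave 0 to 1 called genes there, 0 to 15 in CD8 KO against CD8 WT, 0 to 3 for the difference of the KO effects and 0 to 6 for CD8 WT against CD4 WT, with medians of -0.13 to 0.10, 0.22 to 0.66, 0.29 to 0.63 and -0.52 to 0.056. The median difference of the KO effects was 0.17 under median-of-ratios scaling. Proteasome genes higher in CD4 KO numbered 32 under that scaling and 9 with the span trend removed, and those higher in CD8 WT than CD4 WT numbered 27 under that scaling and 26 without CD8 WT replicate 2.

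With the span trend removed, Psmb5, Psmb6 and Psmb9 stood at -0.12, -0.31 and -0.15 in CD4 KO, beside a median of -0.32 over all genes. Leaving out 1 library, the CD8 KO difference ranged from -0.038 (without CD8 WT replicate 1) to 0.24 for Psmb7, and, with the lowest value without CD8 WT replicate 2, from -0.026 to 1.36 for Psmb10 and -0.050 to 0.76 for Psmd5. The difference of the KO effects of Psmb9 ranged from -0.19 (without CD8 WT replicate 2) to 1.37. For CD8 WT against CD4 WT, median-of-ratios scaling gave 0.037 for Psmb6, 0.16 for Psmb7, 0.11 for Psmb8 and 0.11 for Psmb9. There, leaving out 1 library gave -0.32 to 0.044 for Psmb7, with 0.044 without CD4 WT replicate 1 and 0.0032 without CD8 WT replicate 1. It gave -0.56 to 0.20 for Psmb8, -0.97 to 0.59 for Psmb9 and -1.25 to 0.14 for Psmb10, each highest without CD8 WT replicate 2. The cause of these turns was not tested. Leaving out 1 library, the log2 KO to WT ratio of Psmb8 to Psmb5 ranged from -0.045 to 0.41 in CD4 and -0.038 to 0.35 in CD8 cells, that of Psmb9 to Psmb6 from -0.10 to 0.25 and -0.80 to 0.79, and that of Psmb10 to Psmb7 from -0.22 to 0.49 and -0.27 to 1.41.

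Same-numbered libraries did not deviate together (r of -0.036 to 0.094 over the group pairs), and with the replicate block 0 proteasome genes were called in each comparison. The CD4 difference of Irf1 had an adjusted p of 0.0635 with the block (limma). Over all genes, the block gave 29 calls against 84 in CD4 cells, 26 against 35 in CD8 cells and 26 against 23 for CD8 WT against CD4 WT. The 84 calls in CD4 cells became 0 without a filter or with the span trend removed, 141 under median-of-ratios scaling, 1260 with library weights and 974 with the groups alone. The 35 in CD8 cells became 0 without a filter, with weights or alone and 21 with the span trend removed, and the 23 between WT groups became 1 without a filter, 15 with weights and 8 alone. Leaving out 1 library gave 0 to 925, 0 to 1809, 0 to 1133 (difference of the KO effects, 0 with all libraries) and 0 to 1609 calls.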
